A study of Mus musculus with 31 samples.

Results

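The genes described here are the 8 R-spondin, Lgr and membrane E3 ligase genes Rspo1, Rspo2, Rspo3, Lgr4, Lgr5, Lgr6, Rnf43 and Znrf3, out of 18193 genes with a probe set of their own on the array. Members were chosen by name. A probe set counted for a gene where the platform table gave it that symbol alone, and where a gene had several, the one with the highest mean log2(signal + 16) over all 31 arrays was used. All 8 genes were on the array, with 14 probe sets between them, and 5 (Rspo1, Lgr4, Lgr5, Rnf43 and Znrf3) passed the filter for testing, a signal above the array's own median on at least 3 arrays. Rspo2, Rspo3 and Lgr6 lay below the median on every array.

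The study measured RNA of fetal mouse gonads at embryonic day 14.5 on expression arrays, 1 array per gonad pair, dissected away from the mesonephros. Every embryo, controls included, carried the Sf1-cre transgene, a Cre recombinase driven from the steroidogenic factor 1 gene, which the series describes as acting in the somatic cells. The controls (XX Ctr and XY Ctr) were Ctnnb1+/f and Sox9+/f, so each control had 1 conditional allele of both genes. Ctnnb1 encodes beta-catenin, and Sox9 encodes the transcription factor that directs Sertoli cells. Ctnnb1KO gonads were Ctnnb1f/f with Sox9+/f, Sox9KO gonads were Sox9f/f with Ctnnb1+/f, and DKO gonads were homozygous for both floxed alleles. Each of the 8 groups held 4 gonad pairs except XY DKO, which held 3.

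R-spondins are secreted proteins that bind the receptors LGR4, LGR5 and LGR6 together with the membrane E3 ubiquitin ligases RNF43 and ZNRF3. Those ligases mark Frizzled, the WNT receptor, for removal from the cell surface, and R-spondin takes the ligases away, so that more Frizzled remains and WNT signalling through beta-catenin is stronger. RSPO1 acts with WNT4 in the fetal ovary, where loss of either lets XX gonads take on testis features, and Lgr5, Rnf43 and Znrf3 are known beta-catenin targets in other tissues.

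Sequence upstream of an annotated start site is given for Rspo1 and Rnf43, which moved in opposite directions when Ctnnb1 was lost in XX gonads. Both are RefSeq reference sequence on build GRCm38.p6, 250 bases ending just before an annotated start, 5′ to 3′ on the gene's strand. They lie at chr4:124986180-124986429 (plus strand) for Rspo1 and chr11:87662837-87663086 (plus strand) for the first of 2 Rnf43 starts. The Rspo1 locus given below begins at 124986401, so the last bases of the Rspo1 window lie inside that locus.
Rspo1: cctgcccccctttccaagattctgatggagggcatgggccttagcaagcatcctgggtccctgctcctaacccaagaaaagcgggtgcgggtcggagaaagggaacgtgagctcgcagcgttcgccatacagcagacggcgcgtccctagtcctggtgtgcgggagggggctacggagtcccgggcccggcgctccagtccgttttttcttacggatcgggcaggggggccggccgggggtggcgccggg
Rnf43: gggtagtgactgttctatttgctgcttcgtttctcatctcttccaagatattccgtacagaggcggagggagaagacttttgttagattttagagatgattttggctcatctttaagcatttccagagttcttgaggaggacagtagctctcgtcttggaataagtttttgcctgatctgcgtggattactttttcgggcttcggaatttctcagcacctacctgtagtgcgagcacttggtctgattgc
Both windows were searched on both strands for the TCF/LEF core CTTTGA, the SOX core ACAAT and the NR5A1 (steroidogenic factor 1) core AGGTCA, none of which holds another, and neither held a match, so no letters are capitalised. Windows of the same length held these cores in 13.8%, 27.7% and 14% of the 32851 starts in the table. The absence of a match says only that these letters are not in these 250 bases. The Rspo1 window was 66.8% G or C and the Rnf43 window 44.4%, with a median of 52.4% over all windows. The Lgr4 window and the second Rnf43 window also held none of the 3 cores. The Lgr6 window held 1, a SOX core 62 to 58 bases upstream of that window's annotated start. That window (chr1:135105277-135105526, minus strand) overlaps the Lgr6 locus given below, which reaches 135105374. The SOX core lies inside that locus. RefSeq windows were matched for 4 of the 8 genes.

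Array signals were on a linear scale with the same trimmed mean on each array, and the median of the non-control probe sets ran from 120.3 to 168.3. The targeted gene Sox9 read 929.1 ± 94.5 (SD, n = 4) in XY Ctr, 23.0 ± 16.7 (n = 4) in XY Sox9KO and 26.0 ± 15.0 (n = 3) in XY DKO. Ctnnb1 did not separate the groups, with means from 12319 to 13816, so its probe set says nothing about the deletion. In the library labelled XX Ctnnb1KO replicate 4, Xist read 51.1 against 7886 to 8553 in the other 3 of its group, while the Y-linked Eif2s3y stayed low at 29.6. That array is kept, and the main results for Rspo1, Lgr5 and Rnf43 that use it are also given without it, as are list counts it changes. In these bulk samples, fewer cells of a type and less RNA per cell cannot be told apart.

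**Figure D1:**
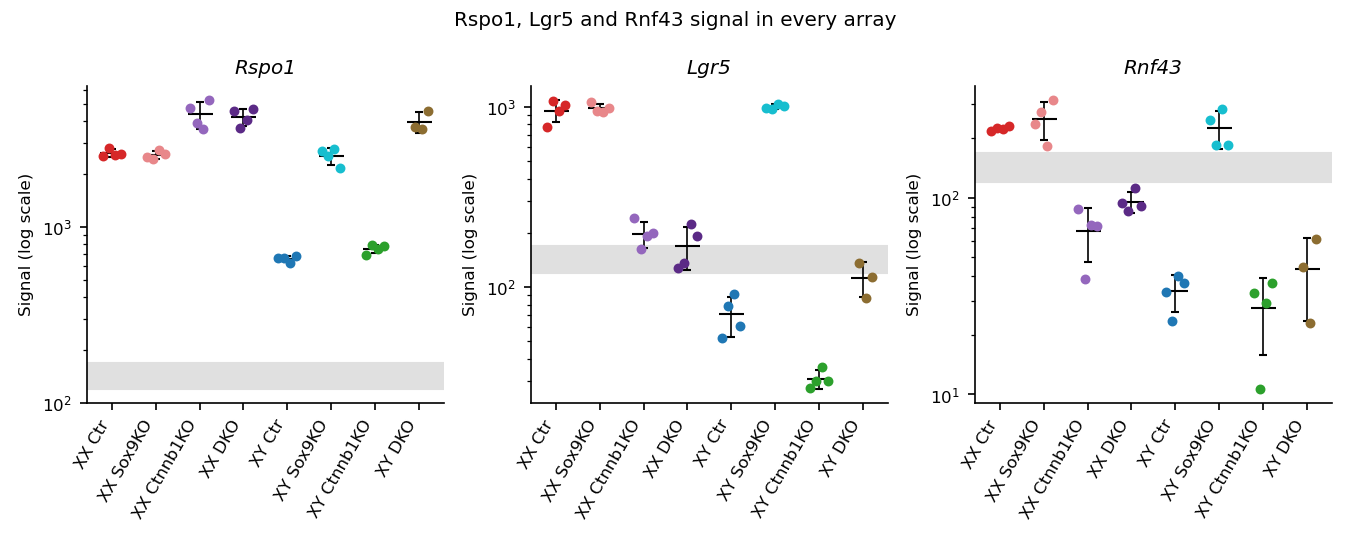
Signal of Rspo1, Lgr5 and Rnf43 (log axis) in each of the 31 arrays by group, with the group mean and SD in black; the grey band spans the array medians, 120.3 to 168.3. Rspo1 was highest in XX Ctnnb1KO, XX DKO and XY DKO, while Lgr5 and Rnf43 were highest in XX Ctr, XX Sox9KO and XY Sox9KO.

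Rspo1, the R-spondin with a known role in the ovary (chr4:124986401-125009102, 1 probe set), was higher in control ovaries than control testes and higher still in XX Ctnnb1KO, XX DKO and XY DKO. In XX Ctr it read 2538.4, 2809.4, 2561.6 and 2593.8, and in XY Ctr 660.8, 662.8, 623.8 and 677.8. Every ovary array lay above every testis array. Rspo1 was 3.93-fold lower in XY Ctr, a log2 difference of -1.97 ± 0.10 (SE, n = 4 and 4) with an adjusted p of 4.50e-16 in limma, where 37.8% of all 11785 tested genes were called. Calls here are limma differences with a Benjamini-Hochberg adjusted p below 0.05, and log2 differences throughout are of signal + 16.

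Loss of Ctnnb1 raised Rspo1 in XX gonads. The XX Ctnnb1KO arrays read 4720.4, 3871.1, 3592.3 and 5223.3, all above the highest XX Ctr array. The log2 difference was 0.71 ± 0.10, a 1.64-fold rise (limma adjusted p = 5.50e-06; 10.1% of tested genes were called). Without replicate 4, the highest of its group, it was 0.62 ± 0.10 (limma adjusted p = 6.67e-05). XX DKO arrays read 4524.7, 3645.5, 4025.3 and 4689.7, again above every XX Ctr array. The difference of XX DKO from XX Ctr was 0.68 ± 0.10 (limma adjusted p = 1.14e-05; 12.9% called), and that from XX Sox9KO was 0.72 ± 0.10 (limma adjusted p = 4.19e-06; 13.5% called).

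Loss of Sox9 alone left Rspo1 in XX gonads near the control level, at 2490.8, 2412.5, 2715.1 and 2592.7. The XX Sox9KO and XX Ctr arrays overlapped, with a log2 difference of -0.04 and a 95% interval from -0.25 to 0.17. No tested gene was called in that limma comparison (0%), and 537 had an unadjusted p under 0.05.

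In XY gonads the same loss of Sox9 brought Rspo1 to the ovarian level. XY Sox9KO arrays read 2696.6, 2513.3, 2778.1 and 2151.0, above all XY Ctr arrays and overlapping those of XX Sox9KO. Relative to XY Ctr, the gain was 1.92 ± 0.10, or 3.78-fold (limma adjusted p = 9.99e-16; 38.7% called). Relative to XX Sox9KO, the difference was -0.02 with a 95% interval from -0.22 to 0.19, in a comparison where 0.11% of genes were called.

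XY DKO gonads had more Rspo1 again, at 3696.7, 3578.4 and 4560.4. These 3 arrays lay above every XY Sox9KO array and overlapped XX DKO. The increase over XY Sox9KO was 0.63 ± 0.11 (limma adjusted p = 5.76e-05; 21.8% called), that over XY Ctr 2.55 ± 0.11 (limma adjusted p = 6.61e-17; 17.2% called) and that over XY Ctnnb1KO 2.37 ± 0.11 (limma adjusted p = 5.41e-16; 14% called). XY DKO and XX DKO differed by -0.10, with a 95% interval from -0.32 to 0.12 (5.22% called).

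In Sox9+/f XY gonads, loss of Ctnnb1 went with only a small difference in Rspo1. XY Ctnnb1KO arrays read 688.6, 782.6, 745.7 and 776.6, each above the highest XY Ctr array. The difference of 0.18 had a 95% interval from -0.02 to 0.39 and was not called by limma (adjusted p = 1; 0.0679% called). XY Ctnnb1KO differed from XX Ctnnb1KO by -2.50 ± 0.10 on the log2 scale (limma adjusted p = 3.76e-18; 32.5% called), and by -2.41 ± 0.10 without XX replicate 4 (adjusted p = 2.82e-17). XX DKO did not separate from XX Ctnnb1KO, at -0.03 with an interval from -0.24 to 0.17 (0.06 without XX Ctnnb1KO replicate 4, not called). No tested gene was called there (0%), and 966 had an unadjusted p under 0.05 in limma.

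Markers of other cells moved alongside each of the Rspo1 gains, and for some the direction differed between gains. In XY Sox9KO against XY Ctr, summed Sertoli signal (7 markers) was 1786 to 2123 against 22635 to 27087, with 7 of 7 called lower by limma. Of all tested genes, 38.7% were called in this comparison. Summed fetal Leydig signal (4 of 5 markers on the array) was 1948 to 2425.5 against 32849 to 37935, with 4 of 4 called lower, and summed interstitial and stromal signal (6 of 7 on the array) was 14482 to 16187 against 27187 to 30137, with 5 of 6 called lower. Surface epithelium and mesothelium markers (6, of which 5 were tested) summed to 6352 to 8073 against 2848 to 3298, with 3 called higher. Macrophage markers (7) summed to 3197 to 3976 against 2743 to 3519.6, and 0 were called.

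In XX gonads, summed macrophage signal was 2471 to 4078 in XX Ctr, 4145 to 6066 in XX Ctnnb1KO and 5120.5 to 6342 in XX DKO, with 4 and 5 of 7 called higher by limma against XX Ctr. Of all tested genes, 10.1% were called in XX Ctnnb1KO and 12.9% in XX DKO. Interstitial and stromal signal was 14078 to 15742 in XX Ctr, 17070.5 to 17958 in XX Ctnnb1KO and 18089 to 21467 in XX DKO, with 1 and 3 of 6 called higher. The count of 1 in XX Ctnnb1KO is near the share of all genes. Of the Leydig markers, Cyp11a1, Cyp17a1 and Star were called higher and Hsd3b1 lower in both knockouts against XX Ctr (medians 1.73 and 1.76). Their sums overlapped, at 1407 to 2006 in XX Ctr, 1476 to 3172 in XX Ctnnb1KO and 1792 to 2564 in XX DKO. The Sertoli genes Dhh, Cst9 and Ptgds were called higher and Aard lower in both, with Sox9 also lower in XX DKO. In XX Ctnnb1KO, Amh (-0.17), Fgf9 (0.08) and Sox9 (0.18) were not called. Sertoli sums overlapped, at 1678 to 2175 in XX Ctr, 1792 to 2657 in XX Ctnnb1KO and 1823 to 2554 in XX DKO. Germ cell signal (7 markers) was 10152 to 17633 in XX Ctr and 18281 to 20725.5 in XX Ctnnb1KO, with 2 of 7 called higher there and 0 without replicate 4. Macrophage, interstitial, Leydig and Sertoli counts in XX Ctnnb1KO were the same without replicate 4. Surface epithelium and mesothelium signal overlapped, at 4976 to 5995 in XX Ctr, 4854 to 6648 in XX Ctnnb1KO and 5621 to 6697 in XX DKO. Pregranulosa sums, given with Lgr5, were lower in both knockouts than in XX Ctr.

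In XY DKO against XY Sox9KO, macrophage signal was 5536 to 7624, with 6 of 7 called higher by limma, and interstitial and stromal signal 22983 to 24167, with 6 of 6 called higher. Of all tested genes, 21.8% were called here. Leydig signal was 12099 to 15673.5, with 4 of 4 called higher, and Sertoli signal 3376 to 3657, with 3 called higher and 1 lower. Surface epithelium and mesothelium signal was lower, at 4860 to 5243 in XY DKO against 6352 to 8073 in XY Sox9KO. Pregranulosa sums, given with Lgr5, were lower as well. The part of these markers in the Rspo1 results was not tested.

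The other R-spondins gave low signals in all groups. Rspo2 (chr15:43020788-43171594), best known from limb and lung development, ranged from 6.03 to 67.9 over 31 arrays, with group means from 18.1 ± 12.4 (n = 3) in XY DKO to 47.1 ± 19.2 (n = 4) in XX Ctnnb1KO. Rspo3 (chr10:29453106-29535867), known for its role in blood vessels and the placenta, had group means from 64.6 ± 21.4 in XY Sox9KO to 80.4 ± 20.5 in XX Ctnnb1KO (n = 4 each). Neighbouring groups in either gene's order overlapped. Detection calls were not used here, so a low signal is not read as absence.

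Lgr5, an R-spondin receptor and stem cell marker (chr10:115450314-115587780), was high in XX Ctr, XX Sox9KO and XY Sox9KO, and much lower in the other 5 groups. XX Ctr arrays read 771.1, 1071.8, 953.5 and 1020.4, and XX Sox9KO arrays 1063.6, 943.3, 932.3 and 984.8. XY Sox9KO arrays read 990.2, 972.6, 1038.9 and 1006.8, within the range spanned by XX Ctr. These 3 groups overlapped. XY Sox9KO differed from XX Sox9KO by 0.03, with a 95% interval from -0.29 to 0.35, and XX Sox9KO from XX Ctr by 0.05, with an interval from -0.27 to 0.37.

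Control testes had 51.9, 78.3, 91.2 and 60.6, all below their arrays' medians. Lgr5 was 11.3-fold lower in XY Ctr than in XX Ctr (log2 difference -3.50 ± 0.16, limma adjusted p = 1.86e-17). Loss of Sox9 in XY gonads raised it by 3.58 ± 0.16 (limma adjusted p = 1.25e-17). The added 16 makes such folds smaller than the ratio of the signals when the lower group is dim.

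Loss of Ctnnb1 lowered Lgr5 wherever it was high. XX Ctnnb1KO arrays read 240.2, 162.1, 190.9 and 198.8, and XX DKO arrays 127.2, 136.8, 223.0 and 191.1. Neither group overlapped XX Ctr or XX Sox9KO, and they overlapped each other. XX Ctnnb1KO differed from XX Ctr by -2.18 ± 0.16 on the log2 scale (4.54-fold lower, limma adjusted p = 1.58e-11), and by -2.19 ± 0.17 without replicate 4 (adjusted p = 2.69e-10). XX DKO differed from XX Sox9KO by -2.46 ± 0.16 (limma adjusted p = 9.27e-13) and from XX Ctr by -2.41 ± 0.16 (limma adjusted p = 1.73e-12). XX DKO and XX Ctnnb1KO differed by -0.23, with an interval from -0.55 to 0.09.

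XY DKO arrays gave Lgr5 signals of 136.6, 87.5 and 113.2, far below XY Sox9KO. The difference from XY Sox9KO was -3.00 ± 0.17 (limma adjusted p = 2.49e-14), an 8.02-fold drop. Against XY Ctr, whose arrays overlapped, XY DKO was 0.57 ± 0.17 higher (limma adjusted p = 0.0172), a call lost without XY Ctr replicate 1 (0.47, adjusted p = 0.0762) or XY DKO replicate 2 (0.44, adjusted p = 0.125). It was also lost with the second probe set (0.16, adjusted p = 0.755), with the mean of both probe sets (0.37, 0.189) and in a fit of the compared arrays alone (0.57, 0.134). Against XX DKO the difference was -0.52 with an adjusted p of 0.0686 in limma, not called. It was called without XX DKO replicate 1 (-0.63, adjusted p = 0.0317) or XY DKO replicate 2 (-0.65, adjusted p = 0.049).

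The lowest Lgr5 signals of all groups were in XY Ctnnb1KO, at 27.5, 29.9, 35.9 and 30.3, below every XY Ctr array. The limma difference from XY Ctr was -0.86 ± 0.16 (adjusted p = 0.0101). That call was lost without XY Ctr replicate 2 (-0.81, adjusted p = 0.0726) or 3 (-0.75, 0.102), or XY Ctnnb1KO replicate 1 (-0.83, 0.0583) or 4 (-0.86, 0.0532), and the gene's second probe set gave -0.08 (adjusted p = 1). Against XX Ctnnb1KO the difference was -2.18 ± 0.16 (limma adjusted p = 1.94e-12; -2.17 without XX replicate 4), and XY DKO was 1.44 ± 0.17 above XY Ctnnb1KO (limma adjusted p = 1.81e-07). In the second probe set that last difference was 0.23 and not called (adjusted p = 0.647).

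The second Lgr5 probe set was dimmer and followed the main one over the 31 arrays (Pearson r = 0.945, a description across arrays of 8 groups). It read 248.0 to 395.0 in XX Ctr, 72.8 to 133.3 in XX Ctnnb1KO, 27.8 to 56.6 in XY Ctr, 184.4 to 302.2 in XY Sox9KO and 23.6 to 66.1 in XY DKO. The ovarian and XY Sox9KO arrays again lay above all arrays with Ctnnb1 lost and above control testes.

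Pregranulosa markers, genes of the supporting cells of the fetal ovary, moved with Lgr5. Their summed signal (7 of 7 markers) was 10121 to 11676 in XX Ctr, 9875 to 12865 in XX Sox9KO, 10977 to 11968 in XY Sox9KO, 4144 to 4609 in XX Ctnnb1KO, 4256 to 4608 in XX DKO, 3227 to 3672 in XY DKO, 2175 to 2549.8 in XY Ctr and 2229 to 2570.2 in XY Ctnnb1KO. Limma called 6 of 7 lower in XX Ctnnb1KO against XX Ctr, 6 lower in XY DKO against XY Sox9KO, and 6 higher and 1 lower (Fzd1) in XY Sox9KO against XY Ctr. Of all tested genes, 10.1%, 21.8% and 38.7% were called in these comparisons. The 6 calls in XX Ctnnb1KO were also 6 without replicate 4. The part of these cells in the Lgr5 result was not tested.

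Lgr4, the broadly expressed receptor of the family (chr2:109917647-110014257), was strong in all groups and varied far less. Group means ran from 3123.9 ± 266.9 in XY Ctr to 4656.4 ± 606.1 (n = 3) in XY DKO, with XX Ctr at 3934.3 ± 701.1. XX Ctr arrays read 4768.8, 4249.8, 3452.2 and 3266.3, and XY Ctr arrays 2955.3, 3285.0, 2845.2 and 3409.8. The control groups overlapped. The log2 difference of Lgr4 in XY Ctr was -0.32 ± 0.12 (limma adjusted p = 0.0389), and the call was lost without XX Ctr replicate 1 (-0.22, adjusted p = 0.168) or 2 (-0.28, 0.108), or XY Ctr replicate 1 (-0.29, 0.0911) or 3 (-0.27, 0.112). It was also lost with the second probe set (-0.25, limma adjusted p = 0.347) and with the mean of both probe sets (-0.28, 0.0868). A fit of the compared arrays alone (-0.32, limma adjusted p = 0.0558) and no filter (-0.32, 0.051) lost the call as well.

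Loss of Ctnnb1 in XX gonads left Lgr4 at 4049.8, 3794.6, 4258.6 and 3962.7, within the range of XX Ctr. The difference was 0.05, with a 95% interval from -0.20 to 0.29 that excludes a drop of the size seen in Lgr5. XY Ctnnb1KO arrays read 2509.1, 3442.4, 3797.7 and 3259.0, overlapping XY Ctr, with a difference of 0.05 and an interval from -0.20 to 0.29. XY Ctnnb1KO differed from XX Ctnnb1KO by -0.32 (limma adjusted p = 0.0446), a call lost without any one of XX Ctnnb1KO replicates 1, 3 or 4 (adjusted p from 0.0672 to 0.109) or XY Ctnnb1KO replicates 1 or 4 (0.222 and 0.0702). With no filter that call was also lost (limma adjusted p = 0.0595).

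XY DKO was the highest group for Lgr4, at 4237.5, 4380.4 and 5351.4, above every XY Ctr and XY Ctnnb1KO array. It was 0.57 ± 0.13 above XY Ctr (limma adjusted p = 0.00234) and 0.52 ± 0.13 above XY Ctnnb1KO (limma adjusted p = 0.00573). Above XY Sox9KO, whose arrays of 3175.2 to 4496.1 overlapped, it was 0.33 ± 0.13 (adjusted p = 0.068), which limma called only without XY Sox9KO replicate 2 (0.43, adjusted p = 0.0189). The second Lgr4 probe set did not show the gain. It read 515.4, 248.6 and 516.8 in XY DKO against 403.4 to 534.5 in XY Ctr, a difference of -0.24 (adjusted p = 0.484), and the pair of probe sets had a Pearson r of 0.268 over the 31 arrays.

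Lgr6, the third receptor (chr1:134983300-135105374), lay below the median on every array, and its highest signal in either probe set was 113.4. Its brighter probe set read 91.9, 106.1, 73.6 and 80.4 in XX Ctr, 26.0, 45.5, 64.8 and 38.8 in XY Ctr and 63.9, 88.4, 102.6 and 85.6 in XY Sox9KO. The control groups did not overlap, and the highest XY Ctr array lay just above the lowest XY Sox9KO array. With no filter, limma gave -0.83 ± 0.19 for XY Ctr against XX Ctr (adjusted p = 0.00106) and 0.78 ± 0.19 for XY Sox9KO against XY Ctr (adjusted p = 0.00191). Its other probe set read 64.9 to 113.4 in XX Ctr 52.4 to 86.4 in XY Ctr and 56.5 to 94.5 in XY Sox9KO, which all overlapped.

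**Figure D2:**
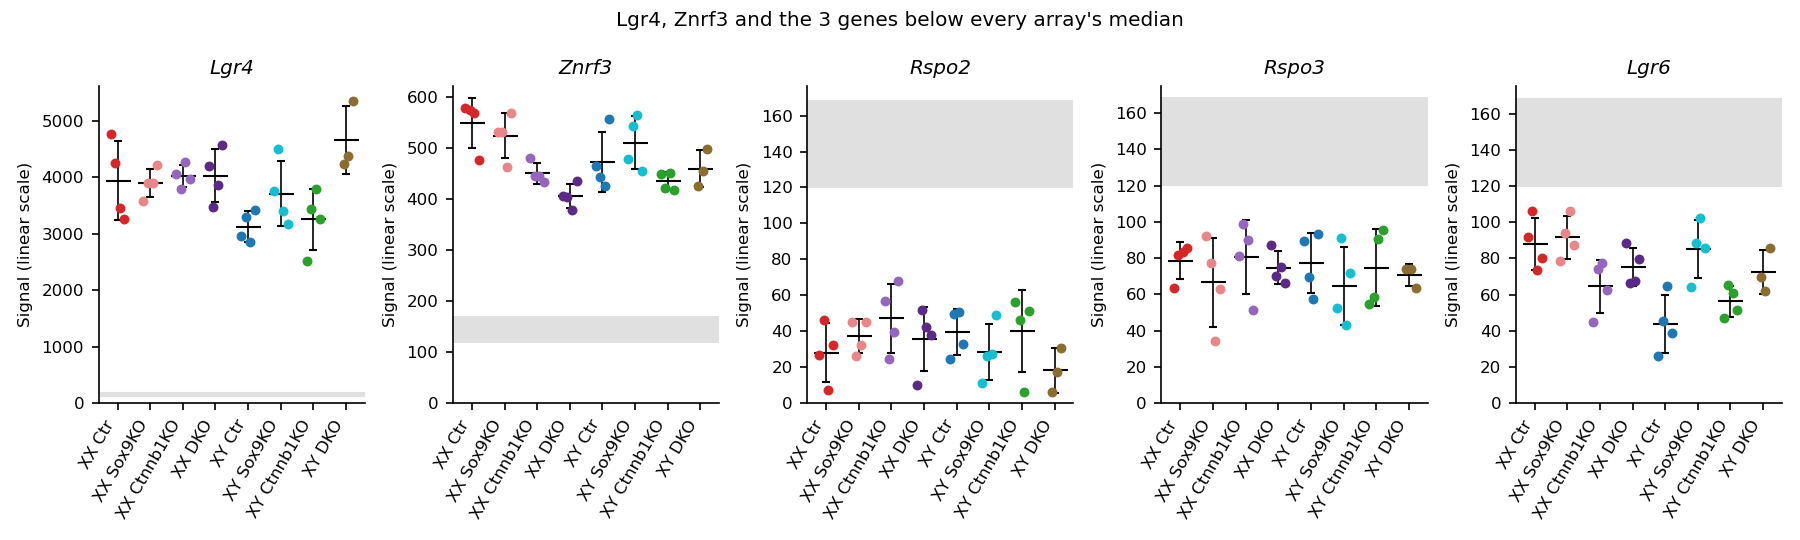
Signal of Lgr4, Znrf3, Rspo2, Rspo3 and Lgr6 (linear axes from 0, each with its own scale) in each of the 31 arrays by group, with group mean and SD in black and the span of array medians in grey. Lgr4 and Znrf3 lay above the medians on all arrays, and Rspo2, Rspo3 and Lgr6 below them on all arrays.

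Rnf43, an E3 ligase that removes Frizzled from the cell surface (chr11:87663087-87735539, 1 probe set), was highest in the same 3 groups as Lgr5. XX Ctr arrays read 218.4, 225.9, 222.1 and 230.7, XX Sox9KO arrays 235.4, 272.4, 183.5 and 311.9 and XY Sox9KO arrays 249.5, 184.5, 282.5 and 185.6. These 12 arrays were the only ones above their array's median for Rnf43, so it passed the filter only through the groups where it was high. Its limma values for these groups against the others are therefore given as a description. The 3 groups overlapped, with XX Sox9KO 0.13 from XX Ctr (95% interval -0.34 to 0.59) and XY Sox9KO -0.14 from XX Sox9KO (-0.61 to 0.32).

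In control testes Rnf43 was 33.1, 23.7, 40.0 and 37.0. It was 4.90-fold lower there than in XX Ctr (log2 difference -2.29 ± 0.23, limma adjusted p = 1.46e-09). Loss of Sox9 raised it in XY gonads by 2.28 ± 0.23, or 4.85-fold (limma adjusted p = 1.68e-09). XY Ctnnb1KO arrays, at 32.6, 10.7, 29.2 and 36.9, overlapped XY Ctr, and the difference of -0.22 was not called (interval -0.69 to 0.24).

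Loss of Ctnnb1 lowered Rnf43 in XX gonads. XX Ctnnb1KO arrays read 87.3, 38.5, 72.6 and 71.9, and XX DKO arrays 93.6, 85.6, 111.6 and 90.4, all below the lowest array of XX Ctr and XX Sox9KO. XX Ctnnb1KO differed from XX Ctr by -1.56 ± 0.23 on the log2 scale (2.95-fold lower, limma adjusted p = 8.13e-06), and by -1.60 ± 0.25 without replicate 4 (adjusted p = 3.39e-05). XX DKO differed from XX Ctr by -1.12 ± 0.23 (limma adjusted p = 7.78e-04) and from XX Sox9KO by -1.24 ± 0.23 (limma adjusted p = 1.95e-04). XX DKO exceeded XX Ctnnb1KO by 0.45, which was not called (interval -0.02 to 0.91).

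XY DKO arrays had Rnf43 at 44.4, 23.1 and 61.9, below all XY Sox9KO arrays and overlapping XY Ctr. The difference from XY Sox9KO was -2.06 ± 0.25 (4.18-fold, limma adjusted p = 1.40e-07), and that from XY Ctr 0.21 (adjusted p = 0.608, not called). Rnf43 stayed lower in XY than in XX gonads after loss of Ctnnb1, at -0.95 ± 0.23 with Sox9 present (limma adjusted p = 0.00156; -0.92 without XX replicate 4) and -0.96 ± 0.25 in DKO (adjusted p = 0.0177). The DKO call was lost without XX DKO replicate 3 (-0.90, adjusted p = 0.0619) or XY DKO replicate 3 (-0.69, adjusted p = 0.133). Every XX and XY array with Ctnnb1 lost lay below its median for Rnf43. The pregranulosa marker sums given with Lgr5 move with Rnf43 as well, and their part in its differences was not tested.

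Znrf3, the paralogue of Rnf43 with the same action on Frizzled (chr11:5276329-5444847), was above the median on all arrays and spanned a narrow range. Group means ran from 405.6 ± 23.2 in XX DKO to 549.0 ± 48.5 in XX Ctr (n = 4 each). XX Ctr arrays read 578.0, 573.7, 567.9 and 476.5, XX Ctnnb1KO arrays 479.5, 444.5, 444.0 and 432.5 and XX DKO arrays 405.1, 404.5, 378.0 and 434.9. XX DKO lay below every XX Ctr array, while XX Ctnnb1KO overlapped XX Ctr through 1 array.

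In Znrf3, XX DKO differed from XX Ctr by -0.42 ± 0.09 (limma adjusted p = 0.00222) and from XX Sox9KO by -0.35 ± 0.09 (limma adjusted p = 0.00961). XX Ctnnb1KO differed from XX Ctr by -0.27 ± 0.09, not called in limma (adjusted p = 0.0626). It was called without XX Ctr replicate 4 (-0.34, adjusted p = 0.0262), and not without XX Ctnnb1KO replicate 4 (-0.26, adjusted p = 0.152). XY Ctr differed from XX Ctr by -0.21 (adjusted p = 0.0761, not called), and limma called that difference without XX Ctr replicate 4 (-0.28, adjusted p = 0.0284) or XY Ctr replicate 4 (-0.29, 0.0177). In XY gonads no Znrf3 comparison was called. XY Sox9KO differed from XY Ctr by 0.11 (interval -0.08 to 0.30) and XY DKO from XY Sox9KO by -0.15 (interval -0.35 to 0.06). The second Znrf3 probe set gave 0.024 for XX DKO against XX Ctr (adjusted p = 0.94), at 281.6 to 322.0 against 223.5 to 348.9, and the pair had a Pearson r of 0.204 over the 31 arrays. For XX DKO against XX Sox9KO the second probe set gave -0.25, not called by limma (adjusted p = 0.287). Its mean was 309.6 in XX Ctnnb1KO and 297.3 in XX Ctr.

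**Figure D3:**
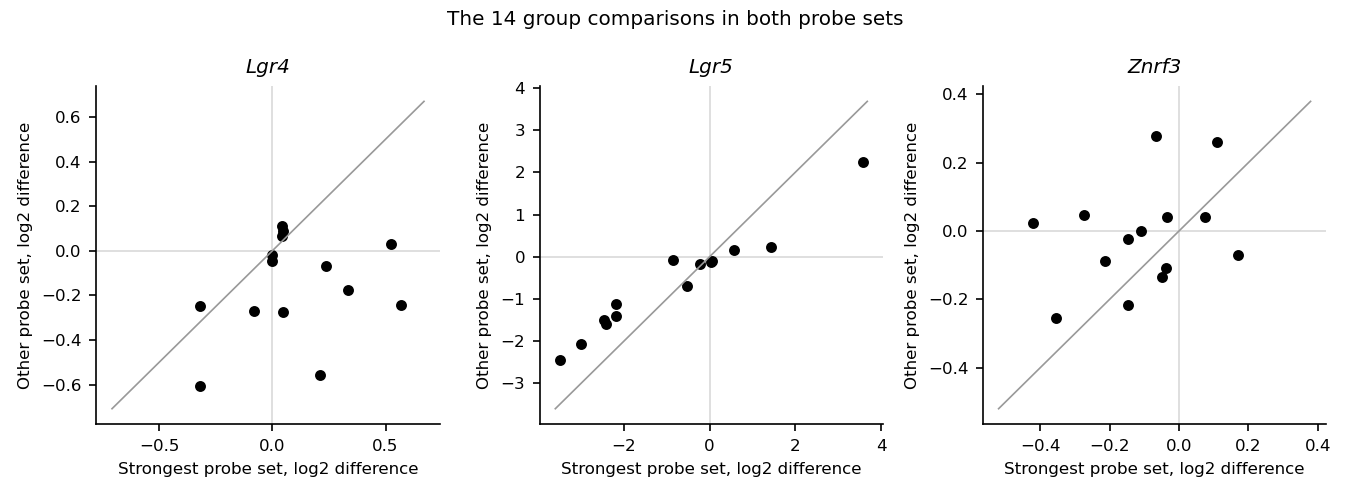
Log2 difference in the brightest probe set (x axis) against that in the other probe set (y axis) for Lgr4, Lgr5 and Znrf3, 1 point for each of the 14 group comparisons, with the line of equality in grey. Lgr5 points keep their sign at every large difference, while for Lgr4 and Znrf3 several comparisons differ in sign, among them Lgr4 in XY DKO against XY Ctr (0.57 and -0.24).

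**Figure D4:**
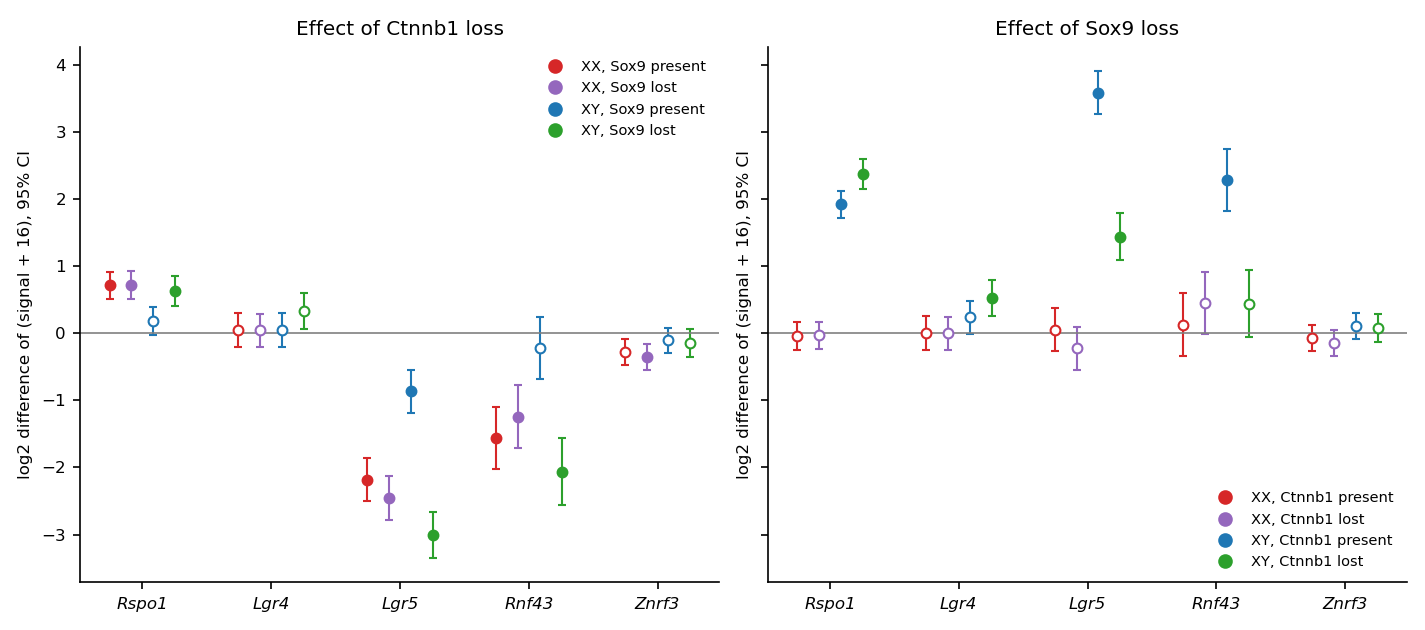
Log2 difference of signal + 16 with its 95% interval for the 5 tested genes after loss of Ctnnb1 (left, with Sox9 present or lost) and after loss of Sox9 (right, with Ctnnb1 present or lost), in XX and XY gonads; filled points were called by limma at an adjusted p under 0.05. Rspo1 lies above 0 and Lgr5 and Rnf43 below 0 in the 3 called settings of Ctnnb1 loss they share, and XX gonads show no called difference after loss of Sox9.

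Whether an effect differed between groups was tested by interaction terms in limma. Rnf43 passed the filter only through the groups where it was high, so its terms are given as a description. The response to Ctnnb1 loss differed by sex for 3 genes, as XY minus XX: -0.53 ± 0.14 for Rspo1 (adjusted p = 0.0277), 1.32 ± 0.22 for Lgr5 (2.07e-04) and 1.34 ± 0.32 for Rnf43 (0.0103), with 4.19% of tested genes called. The Rspo1 term was not called without XX Ctnnb1KO replicate 1 (-0.48, adjusted p = 0.069) or 4 (-0.43, 0.0837), XY Ctr replicate 4 (-0.51, 0.0526) or XY Ctnnb1KO replicate 1 (-0.49, 0.0636). Lgr5 and Rnf43 were already below the array median in XY Ctr, and the part of those low signals in these terms was not tested. Without XX Ctnnb1KO replicate 4 the Lgr5 term was 1.32 and the Rnf43 term 1.37, both called (adjusted p = 5.22e-04 and 0.0144).

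The response to Sox9 loss differed by sex for the same 3 genes, by 1.96 ± 0.14 for Rspo1 (limma adjusted p = 6.25e-12), 3.53 ± 0.22 for Lgr5 (2.49e-13) and 2.15 ± 0.32 for Rnf43 (6.17e-06), with 23.3% of genes called. Within XY gonads, the effect of Ctnnb1 loss differed with Sox9 status for Lgr5 (-2.14 ± 0.23, limma adjusted p = 1.08e-07) and Rnf43 (-1.84 ± 0.34, 2.75e-04), with 9.74% of genes called. Both genes lay below the median on every XY Ctr and XY Ctnnb1KO array, and the part of those low signals was not tested. For Rspo1 that term was 0.45 ± 0.15 with an adjusted p of 0.0516 in limma, not called, and it was called without XY Sox9KO replicate 1 (0.48, adjusted p = 0.0475) or 3 (0.50, 0.0419) or XY DKO replicate 3 (0.52, 0.0383). In XX gonads the same term was called for no gene (0%; 471 had an unadjusted p under 0.05 in limma), with Rspo1 at 0.01 (interval -0.29 to 0.30) and Lgr5 at -0.27 (-0.73 to 0.18). The terms for Lgr4 and Znrf3 were not called in any of the 4 tests.

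Of the 5 tested genes, limma called 4 in XY Ctr against XX Ctr, where 37.8% of all genes were called, 3 in XX Ctnnb1KO (10.1%), 4 in XX DKO (12.9%), 1 in XY Ctnnb1KO (0.0679%), 3 in XY Sox9KO (38.7%) and 3 in XY DKO (17.2%), each against its control. Against the matching Sox9KO group, 4 were called in XX DKO (13.5%) and 3 in XY DKO (21.8%). XY DKO against XY Ctnnb1KO had 3 (14%), XY against XX Ctnnb1KO 4 (32.5%) and XY against XX DKO 1 (5.22%). Rnf43 passed the filter only through XX Ctr, XX Sox9KO and XY Sox9KO, its 12 arrays above the median. Lgr5 was above the median on 18 arrays, the 12 of those groups, 4 of XX Ctnnb1KO and 2 of XX DKO. These counts describe the genes and support nothing further.

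Lgr5 and Rnf43 were both high in the same 3 groups and low in the other 5, with a Pearson r of 0.953 over the 31 arrays, and 0.371 after each group's mean was removed. Their order differed within those blocks, and XX Ctnnb1KO lay above XX DKO for Lgr5 and below it for Rnf43. Rspo1 separated from both: r with Lgr5 was 0.499 over all arrays and 0.185 within groups. XX Ctr, XX Sox9KO and XY Sox9KO held high Lgr5 at intermediate Rspo1, XX Ctnnb1KO, XX DKO and XY DKO held low Lgr5 at the highest Rspo1, and XY Ctr and XY Ctnnb1KO were lowest for Rspo1 and among the lowest for Lgr5. These correlations are descriptions over arrays that share 8 groups.

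**Figure D5:**
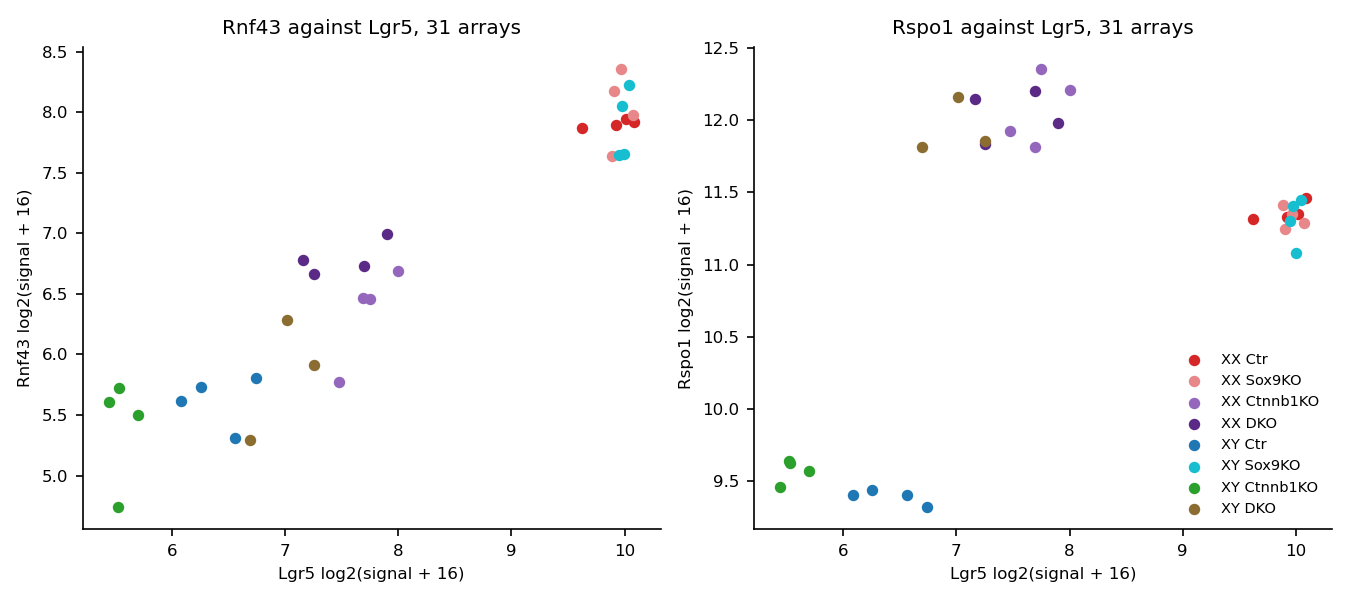
Rnf43 against Lgr5 (left) and Rspo1 against Lgr5 (right), both axes log2(signal + 16), 1 point per array coloured by group, 31 arrays. On the left the arrays form 1 rising band (r = 0.953), and on the right XX Ctnnb1KO, XX DKO and XY DKO stand apart with high Rspo1 and low Lgr5.

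Other genes of the pathway were read from lists chosen by function. Of 11 tested canonical WNT targets, genes that beta-catenin switches on in many tissues, limma called 6 lower and 0 higher in XX Ctnnb1KO against XX Ctr (median difference -0.54, against 0.00 for all tested genes, of which 10.1% were called). Without replicate 4 of XX Ctnnb1KO, 6 were again called lower, where 8.18% of all genes were called. The 4 with the smallest adjusted p were Tnfrsf19, Cd44, Nkd1 and Axin2. Axin2, a feedback inhibitor, fell from 1599.0 to 934.0 (-0.79 ± 0.12, adjusted p = 1.90e-05), and the receptor Tnfrsf19 from 2692.3 to 588.8 (-2.16 ± 0.09, adjusted p = 2.93e-17). In XY Sox9KO against XY Ctr, 10 were called higher and 0 lower (median 1.05, all genes 0.05 with 38.7% called), and in XY DKO against XY Sox9KO, 7 lower and 0 higher (median -0.80, all genes -0.02 with 21.8% called). In XY Ctnnb1KO against XY Ctr none was called (median -0.14, all genes 0.01), where only 0.0679% of all tested genes were called.

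Among WNT ligands and their secretion factors, 10 of 21 were tested. Limma called 3 lower and 1 higher in XX Ctnnb1KO against XX Ctr (median -0.18, all genes 0.00), and 6 higher and 2 lower in XY Sox9KO against XY Ctr (median 0.66, all genes 0.05), where 10.1% and 38.7% of all genes were called. Wnt4, which acts with RSPO1 in the ovary, read 1490.2 in XX Ctr, 640.8 in XX Ctnnb1KO, 674.8 in XY Ctr and 2034.2 in XY Sox9KO. Its log2 difference in XX Ctnnb1KO was -1.20 ± 0.11 (limma adjusted p = 4.18e-09), opposite in sign to the change in Rspo1. Wnt4 is also on the pregranulosa marker list. Wnt9a rose with Rspo1 in XY Sox9KO (1.58 ± 0.15, adjusted p = 6.04e-10) and differed by -0.01 in XX Ctnnb1KO against XX Ctr (adjusted p = 0.988).

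The list of WNT receptors and co-receptors included the Frizzled genes, whose proteins RNF43 and ZNRF3 act on. Of its 13 tested genes, 1 was called higher and 1 lower in XX Ctnnb1KO against XX Ctr (median 0.05, all genes 0.00 with 10.1% called), and 0 higher and 5 lower in XY Sox9KO against XY Ctr (median -0.17, all genes 0.05). With 38.7% of all tested genes called in the latter, the count of 5 in 13 is near the background. Fzd7 was the one higher in XX Ctnnb1KO (0.45 ± 0.10, limma adjusted p = 0.00278). The co-receptor gene Lrp6 was not called in XX Ctnnb1KO (0.05) or XY Sox9KO (-0.08). Among 8 tested extracellular WNT inhibitors, 5 were called lower and 1 higher in XY Sox9KO against XY Ctr (median -0.95, all genes 0.05 with 38.7% called). Sostdc1, which blocks WNT co-receptors, fell from 3651.3 to 49.3 there (-5.83 ± 0.26, limma adjusted p = 1.33e-17), while Apcdd1 rose from 889.5 to 1810.7 (1.03 ± 0.16, adjusted p = 7.18e-06). In XX Ctnnb1KO against XX Ctr the inhibitors had 1 higher and 2 lower (median 0.24, all genes 0.00 with 10.1% called), and 1 higher and 1 lower without XX Ctnnb1KO replicate 4, where Dkk3 was not called (-0.49, limma adjusted p = 0.0715).

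Genes that act with the ligases or downstream of the receptor had calls in XX Ctnnb1KO near the 10.1% of all tested genes called there. Of 9 tested genes of receptor turnover and R-spondin partners, limma called 0 in XX Ctnnb1KO against XX Ctr (median -0.01, all genes 0.00), and 1 higher and 3 lower in XY Sox9KO against XY Ctr (median -0.01, all genes 0.05), near the 38.7% of all genes called. Sdc4, a syndecan that binds R-spondin, was one of the latter (-0.66 ± 0.13, adjusted p = 2.32e-04). Of 11 tested destruction complex and TCF/LEF genes, 0 were called higher and 1 lower in XX Ctnnb1KO, and 2 higher and 0 lower in XY Sox9KO (medians -0.03 and 0.04). Btrc, which tags beta-catenin for degradation, was the one lower in XX Ctnnb1KO (-0.41 ± 0.08, limma adjusted p = 3.17e-04). Axin2, Tnfrsf19, Wnt4, Fzd7 and Btrc were also called in XX Ctnnb1KO without replicate 4, in the same directions.

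The genes whose signal ran closest to each member over the 31 arrays were listed by Pearson correlation, as a description with no test. For Rspo1 they were Myo5b (0.983), Mettl24 (0.975), Slc41a2 (0.970), Plxna4 (0.966) and Wfs1 (0.962). For Lgr5 they were Tnfrsf19 (0.983), Kitl (0.979), Stum (0.976), Prcd (0.973) and D630039A03Rik (0.968), and for Rnf43 they were Cdk14 (0.961), Kitl (0.961), Lgr5 (0.953), Ablim3 (0.949) and Dync1i1 (0.948). Kitl was the one gene besides a member on both lists. Likeness was weaker for Lgr4, led by Ppip5k2 (0.933) and Enoph1 (0.872), and for Znrf3, led by Ahcyl2 (0.810) and Tmem135 (0.809).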

How the data were processed

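RNA of 31 fetal mouse gonad pairs (40 ng each) was measured on 1-colour arrays of 45101 probe sets, 64 of them controls. The deposited values are linear intensity signals made with MAS5, per the submitters' processing notes; detection calls were not used here, and a 2% trimmed mean of 500.0 on every array shows a common scaling. The platform annotation gave 34945 probe sets 1 gene symbol, 932 several and 9160 none.

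Signals were used as log2(signal + 16). One linear model of 8 group means was fitted to 11785 genes with limma 3.58.1 (R 4.3.3; trended variance), and p-values were adjusted by Benjamini-Hochberg within each of 18 comparisons, not across them. Genes had to exceed the array's median on 3 arrays. Each replicate is 1 gonad pair, and the number of arrays limits the precision. Promoter windows and loci came from RefSeq tables (GRCm38.p6). The fit was tested on simulated data. Genes and lists were chosen with earlier results of these data known. Named genes were all members, up to 4 called genes per list by adjusted p, and the 5 best-correlated genes per tested member; Lrp6 and single-comparison values of listed genes were added after values were seen. Replicate numbers were checked as pairs: deviations of same-numbered arrays correlated with a median r of -0.01 (-0.45 to 0.54, 105 pairs), so they were not paired. Other settings tried were a replicate block, the mean over probe sets, fits of the compared arrays alone, each array left out, no filter on dim genes, pseudocounts of 64 and 1, quantile scaling and, chosen after seeing the data, the other probe set of Lgr4, Lgr5 and Znrf3 and the gene lists without XX Ctnnb1KO replicate 4.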

Additional observations from a re-analysis of the deposited data

Results flagged for a closer look

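In Znrf3, the XX Ctr replicate 4 signal of 476.5 lay far from the other 3 of its group, which reached 578.0; it was the only such array in 35 groups of 4 examined, where chance gives about 1 in 20.

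The effect of Ctnnb1 loss differed between XY and XX gonads (limma interaction, XY minus XX) for Rspo1 (-0.53), Lgr5 (1.32) and Rnf43 (1.34). The effect of Sox9 loss differed between the sexes for Rspo1 (1.96), Lgr5 (3.53) and Rnf43 (2.15). In XY gonads, the effect of Ctnnb1 loss differed with Sox9 status for Lgr5 (-2.14) and Rnf43 (-1.84). Lgr5 and Rnf43 lay below the median on every XY Ctr and XY Ctnnb1KO array, and the part of those low signals was not tested. The Rnf43 terms are a description, because it passed the filter only through the groups where it was high.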

How the results depend on the processing

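Of 41 called member differences, 29 were called under every setting tried and 12 were lost under at least 1. The members called in XY Ctnnb1KO against XY Ctr went from 1 to 0 with a pseudocount of 64, with only the arrays compared, with the mean over probe sets and with the other probe set (0 to 1 with an array left out). In XY DKO against XY Ctr they went from 3 to 1 with the mean over probe sets and with the other probe set, in XY DKO against XY Ctnnb1KO from 3 to 1 with the other probe set, and in XY DKO against XX DKO from 1 to 0 with only the arrays compared (0 to 2 with an array left out). The other probe set turned the sign of Znrf3 in XX DKO against XX Ctr (0.024) and of Lgr4 in XY DKO against XY Ctr (-0.24). Among differences not called, 27 changed sign under some setting. With a pseudocount of 1 the sex by Ctnnb1 term of Rnf43 was not called (1.39, adjusted p = 0.0765), and with 64 the XY Ctnnb1 by Sox9 term of Rspo1 was (0.45, 0.0453). Over all genes, calls went from 2573 to 1707 in XY DKO against XY Sox9KO and from 615 to 179 in XY DKO against XX DKO with only the arrays compared, and in XY Sox9KO against XX Sox9KO from 13 to between 7 and 63. XX Sox9KO against XX Ctr had 1 call in place of 0 without XX Ctr replicate 2 or XX Sox9KO replicate 3, XY Ctnnb1KO against XY Ctr 5 in place of 8 without XY Ctnnb1KO replicate 4, and XY DKO against XX DKO 391, 349 and 366 without XX DKO replicate 2, XX DKO replicate 3 and XY DKO replicate 4. The cause was not tested.

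Samples share only a number. With the replicate block, Lgr4 lost its calls in XY Ctr against XX Ctr (adjusted p = 0.0506) and XY against XX Ctnnb1KO (0.0569), and all-gene calls in XY Sox9KO against XX Sox9KO went from 13 to 8. Signals of Rspo2, Rspo3 and Lgr6 below every array's median limit what can be said of them.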
